A study of Mus musculus with 12 samples.

Results

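The comparison described here is that of hispidulin with its vehicle in hearts under pressure overload, 3 hispidulin+AB mice against 3 DMSO+AB mice, chosen by the treatment given in the sample labels. These are 6 of the 12 mice of the study, whose other 6 had a sham operation with hispidulin (3 mice) or DMSO (3 mice). All 12 were labelled C57BL/6 and 12 weeks old when the tissue was taken, and the study's methods describe male C57BL/6J mice. Aortic banding (AB), a surgical narrowing of the aorta, or the sham operation was performed 4 weeks before the left ventricular muscle was collected. Hispidulin, a plant flavone, was injected intraperitoneally at 20 mg/kg/day from the day preceding the operation until the end, and the DMSO mice received the solvent alone. The labels name no transgene or deletion. The samples were whole muscle rather than isolated cells, so that in every result a change in the number of cells of a type and a change in the RNA per cell cannot be told apart.

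Under pressure overload the ventricle thickens, and its myocytes return to a fetal pattern of expression with high natriuretic peptides and skeletal actin. Fatty acid oxidation, the main source of ATP of the adult heart, declines along with repolarising potassium channels, while fibroblasts lay down matrix under the influence of TGF-beta. Hypertrophy is accompanied by stress pathways such as the integrated stress response, and by innate immune signals among which type I interferon induces a well defined group of antiviral genes.

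Polyadenylated RNA was sequenced as single-end reads of 50 bases, and the authors deposited FPKM, a read count scaled to transcript length and library size, for 18079 genes. Of these, 11664 reached an FPKM of 1 in at least 3 of the 12 mice and were tested on the log2(FPKM + 1) scale. Read counts were not analysed here and the depth of the libraries is unknown, so counting error cannot be given. FPKM sums of the 6 AB mice ranged from 535200 to 567000, and within an AB group the Spearman correlation of 2 mice across genes ranged from 0.966 to 0.989. All 10 cardiomyocyte markers were among the tested genes in these libraries, with a summed FPKM of 62160.0 to 66810.0 in DMSO+AB and 64380.0 to 69130.0 in hispidulin+AB. Of 12 lymphocyte markers, 0 reached the level for testing. Some libraries stood apart in a few groups of genes. The first DMSO+AB mouse was low in matrix genes and Nppa, the second in DMSO+AB and the third in hispidulin+AB were high in atrial genes, and the third hispidulin+AB mouse was high in interferon-stimulated genes, so single mice weigh in many values. Where leaving out 1 AB mouse moved a difference or a list median of at least 0.1 by over 1.5 times, the value without that mouse is given, or the lowest and highest value over the 6 fits that each left out 1 of these mice, as the leave-one-out range.

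No gene was called between hispidulin+AB and DMSO+AB. In limma, with Benjamini-Hochberg adjustment, 0 of 11664 genes (0%) passed an adjusted p of 0.05, the lowest being 0.996. It is the adjusted p of nearly every gene named below, and no named gene had a smaller one in this fit. Before adjustment 362 genes (3.1%) passed, with 187 (1.6%) higher and 175 (1.5%) lower in the hispidulin mice. Over all genes 5993 (51.4%) were higher and 5671 (48.6%) lower. In 919 genes (7.88%) all 3 mice of one group lay beyond all 3 of the other, 493 higher (4.23%) and 426 lower (3.65%) with hispidulin, and 217 genes met both conditions. A full separation of 3 against 3 mice has a two-sided exact permutation p of 0.1, so it is a weak mark for a single gene. The shares of 3.1% and 7.88% did not exceed the levels of 0.05 and 0.1 that these marks stand for.

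Most differences were small. The median difference over all tested genes was 0.0047, and the 5th and 95th percentiles were -0.27 and 0.30 on the log2 scale. An absolute difference of at least 0.5 was found in 270 genes, 134 higher and 136 lower, and of at least 1 in 28 genes, 9 higher and 19 lower. The median standard error was 0.15. For 11091 genes (95.1%) the 95% interval of the difference lay within 1 log2 unit of zero, and for 7532 (64.6%) within 0.5 units. Among the 3675 genes with a mean FPKM from 1 to 5 the median standard error was 0.16, and among the 76 genes over 1000 it was 0.11.

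**Figure D1:**
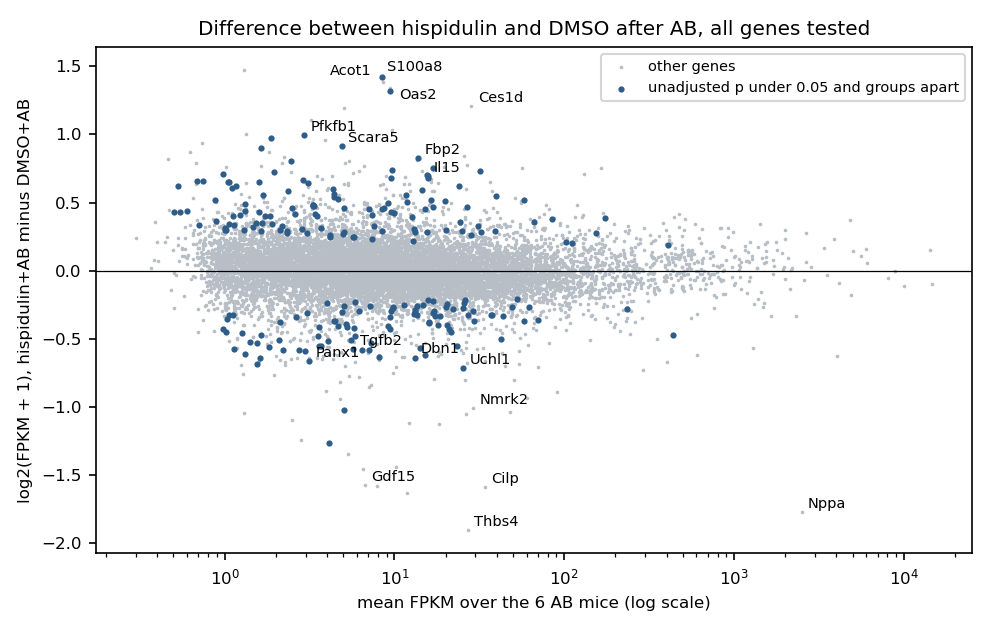
Difference in log2(FPKM + 1) between hispidulin+AB and DMSO+AB (vertical axis) against the mean FPKM of the 6 AB mice on a log axis (horizontal) for the 11664 tested genes. Blue points are the 217 genes with an unadjusted p under 0.05 whose groups did not overlap, and nearly all of them lie within 1 log2 unit of zero, while Nppa, Thbs4 and Cilp, the largest negative ones labelled, are grey because their groups overlapped.

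Among genes that met both conditions and were higher with hispidulin, those with the largest difference included 3 enzymes of fuel use. Acot1 (NCBI Gene 26897), a cytosolic thioesterase that releases fatty acids from acyl-CoA and is induced through PPARalpha, had an FPKM of 6.63, 2.58 and 3.33 in the DMSO+AB mice and 13.0, 16.6 and 8.16 in the hispidulin+AB mice. Every hispidulin+AB mouse was thus above every DMSO+AB mouse, by 1.42 in the mean of log2 (SE 0.50, 95% interval 0.34 to 2.50). Acot1 has close paralogs whose reads could be shared with it, which makes its level uncertain. Pfkfb1 (18639), which sets the level of the glycolytic regulator fructose 2,6-bisphosphate, was at 2.69, 0.990 and 1.21 with DMSO and 3.56, 6.19 and 2.92 with hispidulin, a difference of 1.00 (SE 0.31). Fbp2 (14120), the muscle fructose bisphosphatase, measured 14.5, 8.60 and 6.79 against 18.6, 19.8 and 14.8, a difference of 0.83 (SE 0.23). In both enzymes the first DMSO+AB mouse was the closest to the hispidulin group. Fbp2 was between 17.1 and 25.4 in the 6 sham mice, and hispidulin made little difference there (-0.0043).

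Several of the other leading genes encode secreted or surface proteins. Scara5 (71145), a ferritin receptor found on fibroblasts, was expressed at 4.95, 1.59 and 3.21 in DMSO+AB and at 6.64, 6.90 and 6.18 in hispidulin+AB, a difference of 0.91 (SE 0.25, leave-one-out range 0.60 to 1.20). The hispidulin mice differed from one another by less than 1 FPKM, whereas the DMSO mice spread from 1.59 to 4.95. Retnla (57262), a product of alternatively activated macrophages, was at 1.81, 0.790 and 0.120 and 2.06, 1.87 and 3.16, and Cytl1 (231162), a small secreted cytokine-like protein, at 7.58, 8.69 and 4.85 and 15.8, 11.4 and 9.80. Their differences were 0.90 (SE 0.37, leave-one-out range 0.57 to 1.23) and 0.74 (SE 0.30). Oas2 (246728), an interferon-induced antiviral enzyme, was at 3.86, 4.48 and 3.54 in DMSO+AB and 6.33, 6.83 and 31.8 in hispidulin+AB. The third hispidulin mouse was well above the rest, and the difference was 1.32 with it and 0.62 without it. Klhl33, a kelch-domain protein, Ppip5k2, an inositol pyrophosphate kinase, and the predicted gene Gm20604 differed by 0.80, 0.75 and 0.97. Gm20604 was listed at 0 in the first DMSO+AB mouse. The leave-one-out range was 0.47 to 1.04 for Ppip5k2 and 0.52 to 1.30 for Gm20604.

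The smallest unadjusted p of all genes was that of Il15 (16168), the cytokine that maintains natural killer and memory T cells and is also made by muscle. Its FPKM was 13.9, 10.7 and 10.8 in DMSO+AB and 21.0, 21.5 and 16.4 in hispidulin+AB, and between 21.1 and 31.5 in the sham mice. All hispidulin+AB mice were above all DMSO+AB mice, and the second of them lay above the lowest sham mouse. The difference was 0.69 (SE 0.15, 95% interval 0.36 to 1.03, unadjusted p = 0.000735, adjusted p = 0.996 by limma with Benjamini-Hochberg adjustment). When one AB mouse was left out it ranged from 0.63 to 0.81. The animal numbers in the labels fall into a high and a low series. Il15 differed by 0.76 in the series with 2 mice of each group, and by 0.57 in the series with 1 of each.

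Other secreted proteins and an enzyme of NAD synthesis differed in either direction. Tgfb2 (21808) and Tgfb1 (21803), ligands that drive fibroblasts towards matrix synthesis, were both lower with hispidulin and did not overlap between the groups. Tgfb2 was at 5.14, 8.31 and 7.78 in DMSO+AB and 4.12, 3.87 and 5.10 in hispidulin+AB, a difference of -0.57 (SE 0.16), and the 6 sham mice were at or below 2.63. Tgfb1 was at 25.3, 32.5 and 33.2 against 23.1, 24.3 and 24.2, a difference of -0.32 (SE 0.13). Igf2 (16002), an insulin-like growth factor, was higher with hispidulin at 10.2, 15.6 and 9.99 against 8.86, 6.18 and 6.03, by 0.68 (SE 0.24). The endothelial clotting factor Vwf (22371) was at 7.08, 7.37 and 7.66 with DMSO and 13.1, 11.2 and 8.57 with hispidulin, a difference of 0.50 (SE 0.16). Nampt (59027), which makes the precursor of NAD, the cofactor of sirtuins, was at 42.2, 35.6 and 21.2 and 45.7, 48.8 and 45.8, without overlap but with the first DMSO+AB mouse close below the hispidulin group. Its difference was 0.54 (SE 0.21, leave-one-out range 0.26 to 0.75), the lowest value being without the third DMSO+AB mouse.

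Genes lower with hispidulin that met both conditions included regulators of the cytoskeleton and of protein turnover. Dbn1 (56320), an actin-binding protein, had an FPKM of 14.6, 17.2 and 16.8 in the DMSO+AB mice and 10.1, 8.93 and 11.2 in the hispidulin+AB mice. The DMSO mice lay close together, and the difference of -0.64 (SE 0.17, 95% interval -1.01 to -0.27) ranged from -0.71 to -0.56 when one mouse was left out. Sham mice were at 4.68 or lower. Uchl1 (22223), a deubiquitinating enzyme, was at 20.1, 41.1 and 35.6 and 17.6, 19.6 and 18.3, so that the DMSO mice ranged more widely than the hispidulin mice. It differed by -0.71 (SE 0.25).

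Panx1 (55991), a channel through which cells release ATP, was at 2.41, 6.28 and 3.82 in DMSO+AB and at 2.01, 2.24 and 2.08 in hispidulin+AB, a difference of -0.66 (SE 0.22, leave-one-out range -0.93 to -0.38). The actin-capping protein Capg was at 12.7, 21.7 and 21.6 against 10.5, 11.5 and 12.6 (difference -0.61), and Arhgdig, a dissociation inhibitor of small GTPases, at 1.18, 2.08 and 2.14 against 1.01, 0.900 and 0.540 (difference -0.61). In each of these 3 genes the first DMSO+AB mouse was the lowest of its group. Oaf, a secreted protein of unclear role in the heart, differed by -0.63. Other features of this kind are of uncertain mapping. Gm13871 was listed at 0 in 1 hispidulin mouse (difference -1.26, leave-one-out range -1.76 to -0.53), and the pseudogene Gng5-ps, the predicted gene Gm3435 and NCBI Gene 69579, for which no symbol was found, differed by -1.02, -0.68 and -0.64. Reads of such copies may be split with related genes.

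**Figure D2:**
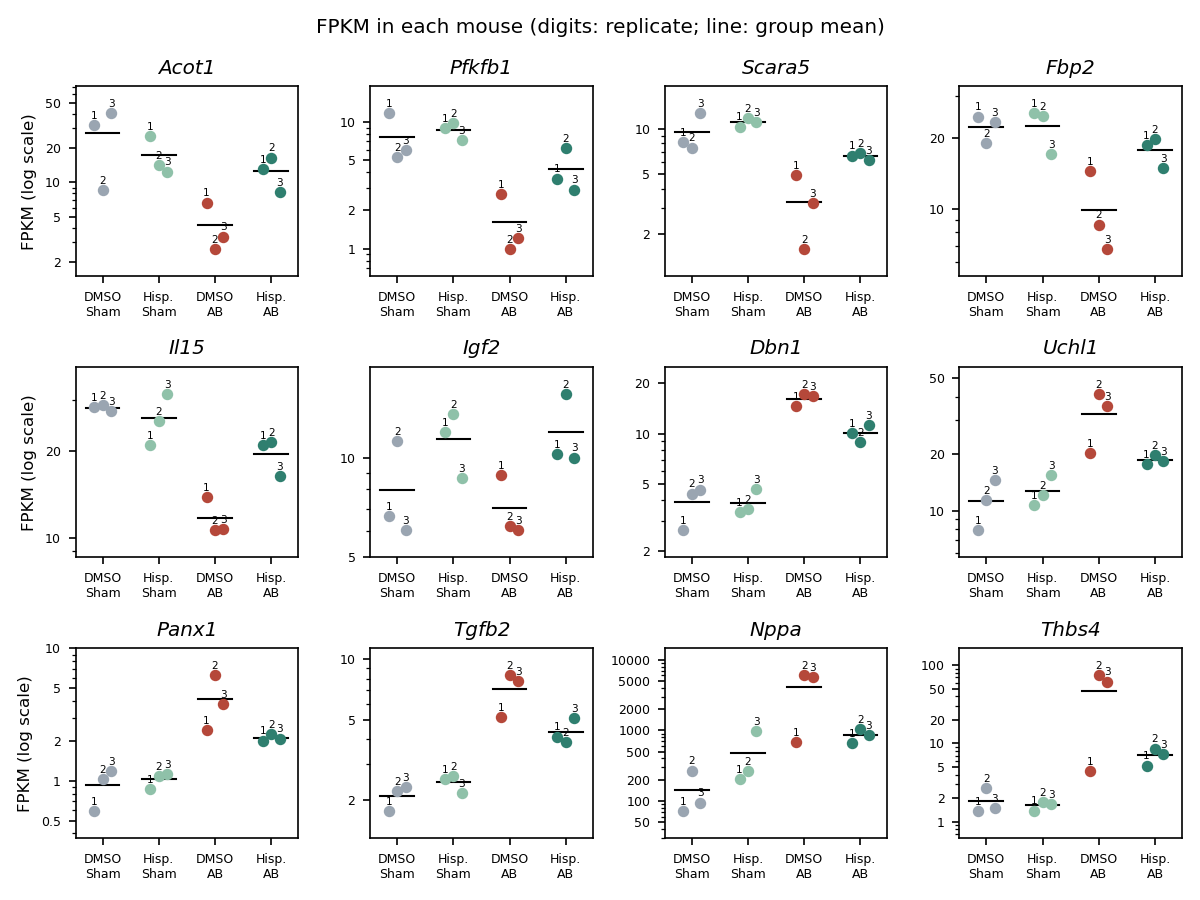
FPKM of 12 genes (log axis) in each of the 12 mice by group, with the replicate number beside each point and a line at the group mean. For Il15, Scara5, Dbn1 and Tgfb2 all 3 hispidulin+AB mice lie on one side of the DMSO+AB mice, whereas for Nppa and Thbs4 the first DMSO+AB mouse lies with the hispidulin+AB mice.

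The hypertrophy markers differed more in size, with the DMSO+AB mice divided. Of 14 tested markers of the stress response, 11 were lower and 3 higher with hispidulin, with a median difference of -0.31 against 0.0047 over all genes. Without the second hispidulin+AB mouse the median was -0.15. In 2 of the 14 (14.3%) the groups did not overlap, against 7.88% of all genes, and these went in opposite directions, Nppb lower and Mylk3, a myosin light chain kinase of heart muscle, higher by 0.16 (leave-one-out range 0.096 to 0.22). Nppa (230899), the atrial natriuretic peptide, was at 680.2, 6043 and 5738 in DMSO+AB and 666, 1047 and 849.6 in hispidulin+AB. The first DMSO+AB mouse thus lay within the hispidulin range and the other 2 at least 5 times above it. The difference was -1.77 (SE 0.81, 95% interval -3.53 to -0.0100), and -2.81 without the first DMSO+AB mouse (leave-one-out range -2.81 to -1.23). Nppb (18158), the B-type peptide, was at 1394, 1774 and 1451 against 1103, 801 and 1249.6 and did not overlap, with a smaller difference of -0.57 (SE 0.36). Acta1, the skeletal actin, was at 2141, 4373 and 8828 and 1893, 4206 and 2824, and the groups overlapped (-0.63, leave-one-out range -1.14 to -0.12). Myh7, the slow myosin heavy chain, differed by -0.38 and changed sign between mice left out (leave-one-out range -1.08 to 0.16), and the stress protein Ankrd1 by -0.34 (leave-one-out range -0.51 to -0.083).

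The same division ran through the matricellular genes, which fibroblasts secrete in injured tissue. Of 26 tested genes, 22 were lower and 4 higher with hispidulin (median -0.55), but in 0 of them did the groups separate (0%, against 7.88% of all genes). Before adjustment 6 of the 26 passed a p of 0.05 in limma, all lower, against 3.1% of all genes. The median was -0.76 without the first DMSO+AB mouse and -0.17, with 17 lower and 9 higher, without the second. This list was assembled with earlier results of these data known and is no independent evidence of its direction. Thbs4 (21828), a thrombospondin, was at 4.42, 74.7 and 61.7 in DMSO+AB and 5.19, 8.58 and 7.27 in hispidulin+AB. Cilp (214425), a matrix protein that binds TGF-beta, was at 6.79, 84.1 and 76.2 against 6.80, 18.9 and 11.2. For both the first DMSO+AB mouse stood with the hispidulin+AB mice. The differences were -1.90 (SE 0.73) and -1.59 (SE 0.72), and -3.13 and -2.71 without that mouse. The leave-one-out ranges were -3.13 to -1.22 and -2.71 to -0.99, both nearest to 0 without the second DMSO+AB mouse.

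With the first DMSO+AB mouse removed from the fit, 20 genes (0.171%) passed an adjusted p of 0.05 in limma with Benjamini-Hochberg adjustment, and 1296 (11.1%) an unadjusted p of 0.05. Of these 20, 16 were lower with hispidulin. They included Thbs4 (adjusted p = 0.000313) and Ltbp2, a latent TGF-beta binding protein (adjusted p = 0.0119), besides Comp, Fmod and Cilp. The 4 that were higher were Ces1d, a carboxylesterase of lipid droplets, Efnb3, an ephrin, and the mitochondrial enzymes Adhfe1 and Acaa2, the last a thiolase of fatty acid oxidation. Ces1d was at 34.6, 7.75 and 14.1 in DMSO+AB and 42.3, 39.6 and 32.0 in hispidulin+AB, and differed by 1.21 with all mice and 1.75 without the first DMSO+AB mouse (leave-one-out range 0.74 to 1.75, the lowest without the second). In the other 5 fits that each left out 1 AB mouse, 0 genes passed, and 181 to 302 had an unadjusted p under 0.05.

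In 195 genes the first DMSO+AB mouse lay at least 1 log2 unit from the mean of the other 2 of its group, and in 137 of them (70.3%) the hispidulin+AB mean was nearer to that mouse than to the others. For the second DMSO+AB mouse this was so in 11 of 105 genes (10.5%), and for the third in 10 of 140 (7.14%). The fibroblast markers differed between the same mice. Their summed FPKM over 10 markers was 978, 1490.0 and 1476 in the DMSO+AB mice in replicate order and 1008, 1223 and 1089 in the hispidulin+AB mice, and 7 of the 10 were lower with hispidulin. The part of the fibroblast content in these differences was not tested.

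Genes that respond to fatty acids through PPAR nuclear receptors were mostly higher with hispidulin. Like every list here, this one was assembled with earlier results of these data known and is no independent evidence of its direction. Of 18 tested, 17 were higher and 1 lower with hispidulin, with a median of 0.28, and in 5 (27.8%) the groups did not overlap, against 7.88% of all genes. These 5 were Acot1 and, in addition, Ucp3, Angptl4, Plin4 and Slc25a20. Ucp3, a mitochondrial carrier of muscle, was at 19.7, 17.0 and 22.1 in DMSO+AB and 34.6, 36.4 and 31.6 in hispidulin+AB, a difference of 0.78 (SE 0.40), although the sham mice ranged from 15.8 to 74.9. Angptl4, which inhibits lipoprotein lipase, was at 15.6, 14.0 and 10.6 against 18.7, 18.4 and 24.6 (difference 0.59, SE 0.53), and Slc25a20, the carnitine carrier, at 111, 96.3 and 100.3 against 121, 119.9 and 113 (difference 0.20, SE 0.091). Plin4, a lipid droplet protein, differed by 0.36 (leave-one-out range 0.21 to 0.46). When one AB mouse was left out the median of the list ranged from 0.21 to 0.39. Ppargc1a, the gene of PGC-1alpha, a coactivator of these receptors, was at 30.5, 18.0 and 13.6 and 19.0, 21.0 and 18.5, a difference of -0.0068 (95% interval -0.63 to 0.61), and of 0.30 without the first DMSO+AB mouse.

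Glucocorticoid-induced genes were also mostly higher, 15 of 16, with a median of 0.23 and 3 without overlap (18.8%, against 7.88% of all genes). Without the first hispidulin+AB mouse 10 of 16 were higher and the median was 0.089, and without the second DMSO+AB mouse 12 were higher and the median was 0.14. Sult1a1, a sulfotransferase, was at 43.1, 41.2 and 40.0 in DMSO+AB and 60.9, 57.3 and 63.4 in hispidulin+AB, so that a gap separated 2 narrow groups. Its difference was 0.54, with a standard error of 0.35 that takes in the spread of all groups, and the sham mice ranged from 33.4 to 136.7. Angptl4, given above, and Lcn2 were the others. Zbtb16, a transcription factor induced by these hormones, differed by 0.45, Klf15 by 0.32 and Fkbp5 by 0.24, with overlap. Their leave-one-out ranges were 0.26 to 0.67, 0.19 to 0.43 and 0.072 to 0.37, all 3 lowest without the second DMSO+AB mouse.

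Genes of membrane excitability were mostly higher too. Of 23 tested ion channel and gap junction genes, 18 were higher with hispidulin (median 0.18), as were 7 of 10 cardiomyocyte markers. Before adjustment 1 of the 23 passed a p of 0.05 in limma, against 3.1% of all genes. In 3 the groups did not overlap (13.0%, against 7.88% of all genes). These encode the potassium channels Kcnq1, Kcnj5 and Kcnd3, which differed by 0.30, 0.31 and 0.16, the last with a leave-one-out range of 0.087 to 0.20. Kcnd2, which carries the transient outward current of the mouse ventricle, was at 3.57, 1.72 and 1.49 in DMSO+AB and 4.07, 5.07 and 2.58 in hispidulin+AB. It overlapped through the first DMSO+AB mouse and differed by 0.61 (SE 0.24), and by 0.88 without that mouse. Kcnj2, the inward rectifier, differed by 0.47 (leave-one-out range 0.28 to 0.65), whereas Gja1, the main ventricular connexin, differed by 0.025.

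Among calcium handling genes, 16 of 23 were higher (median 0.11), 1 of them without overlap (4.35%, against 7.88% of all genes). This was Cacna1c (12288), the L-type calcium channel, at 25.2, 21.0 and 21.2 against 28.7, 27.9 and 26.1, with a difference of 0.29 (SE 0.13). Ryr2, the calcium release channel, was at 74.7, 58.8 and 50.0 in DMSO+AB and 71.9, 68.8 and 82.6 in hispidulin+AB, and differed by 0.29 (leave-one-out range 0.16 to 0.45). Pln, the inhibitor of the calcium pump, and Hrc, a calcium-binding protein of the sarcoplasmic reticulum, differed by 0.30 (leave-one-out range 0.11 to 0.42) and 0.31 (leave-one-out range 0.13 to 0.51). The median of this list ranged from -0.019 to 0.25 with one AB mouse left out, and so changed sign, being negative without the third DMSO+AB mouse. That of the channels ranged from 0.096 to 0.21, the lowest without the second DMSO+AB mouse, where 14 of 23 were higher. Sarcomere genes were evenly divided, with 11 higher and 13 lower (median -0.023). The most abundant transcripts of the muscle, Myl2 and Mb, for the ventricular myosin light chain and myoglobin, differed by 0.15 (leave-one-out range 0.093 to 0.22) and -0.097.

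**Figure D3:**
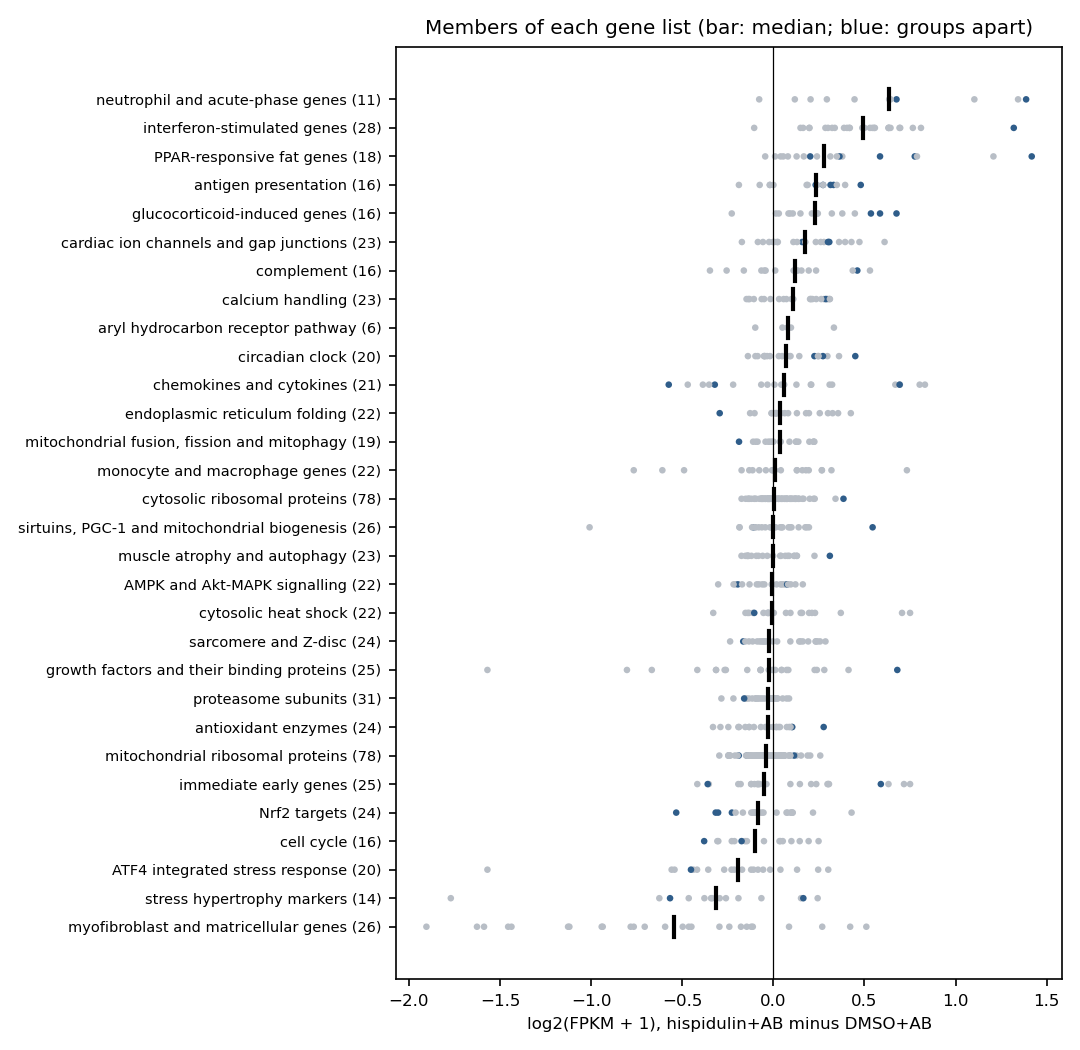
Difference in log2(FPKM + 1) between hispidulin+AB and DMSO+AB for the tested members of each gene list (horizontal axis), with the number tested in brackets, a black bar at the median and blue points where the groups did not overlap. Medians run from -0.55 for myofibroblast and matricellular genes to 0.64 for neutrophil and acute-phase genes, and most lists have medians near 0.

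Targets of ATF4, the transcription factor of the integrated stress response, were mostly lower with hispidulin, 16 of 20 with a median of -0.19. Gdf15, a hormone released by stressed cells, was at 2.83, 14.5 and 15.3 in DMSO+AB and 2.36, 3.58 and 1.40 in hispidulin+AB. It was again low in the first DMSO+AB mouse, and differed by -1.57 (SE 0.60), and by -2.25 without that mouse. Mthfd2, Phgdh and Pycr1, enzymes of one-carbon, serine and proline synthesis, differed by -0.56 (leave-one-out range -0.79 to -0.33), -0.44 (leave-one-out range -0.69 to -0.23) and -0.45, and only in Pycr1 of the 20 (5%, against 7.88% of all genes) did the groups not overlap. Pycr1 was at 0.910, 1.67 and 1.39 in DMSO+AB and 0.570, 0.860 and 0.630 in hispidulin+AB. No hispidulin mouse reached an FPKM of 1, so it passed the filter only through DMSO mice, which favours a lower value with hispidulin. With one AB mouse left out the median of the list ranged from -0.24 to -0.14. With the filter at an FPKM of 5, 9 members remained, 6 of them lower, with a median of -0.11. Heat shock and endoplasmic reticulum chaperones had medians of -0.0094 and 0.038, which changed sign between mice left out. Of 31 proteasome subunits 23 were lower, with a median of -0.027, but 14 were lower and the median was 0.017 without the second DMSO+AB mouse, and 16 were lower with quantile normalization.

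Flavonoids are known to act on the antioxidant factor Nrf2 and on the aryl hydrocarbon receptor. Of 24 tested Nrf2 targets, 9 were higher and 15 lower with hispidulin (median -0.086), and 4 (16.7%, against 7.88% of all genes), all lower, did not overlap. With one AB mouse left out the median ranged from -0.11 to -0.049, nearest to 0 without the first DMSO+AB mouse. Hmox1, heme oxygenase 1, was at 20.3, 21.2 and 13.0 in DMSO+AB and 12.2, 11.3 and 12.4 in hispidulin+AB. The hispidulin mice were close together just below the lowest DMSO mouse, and the difference was -0.53 (SE 0.52). The others were the ferritin gene Ftl1 (-0.32), G6pdx of the pentose phosphate pathway (-0.30) and glutathione reductase Gsr (-0.23). Nqo1, a standard readout of Nrf2, differed by -0.099 (leave-one-out range -0.25 to -0.0035). Of the aryl hydrocarbon receptor pathway 6 genes were tested, 5 higher and 1 lower with hispidulin (median 0.079). The groups separated in 0 of them (0%, against 7.88% of all genes), which in so few genes says little. Among them Cyp1b1, an enzyme induced by the receptor, was at 4.53, 4.71 and 4.21 and 4.63, 5.12 and 4.65.

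The study measured Sirt1 and its partner PGC-1alpha as protein, and reported higher levels with hispidulin after AB. By qPCR it reported higher mRNA of SOD1, MnSOD (Sod2) and catalase, with Prx-3 (Prdx3) barely altered. It does not state whether the sequenced hearts were among those measured, and the values below are of RNA only. In the sequencing data Sirt1 was at 5.47, 4.36 and 2.99 in DMSO+AB and 4.42, 4.55 and 5.14 in hispidulin+AB, with overlap and a difference of 0.14 (95% interval -0.26 to 0.54, leave-one-out range -0.048 to 0.30). Sod1, Sod2, Cat and Prdx3, which remove superoxide and peroxide, differed by 0.086, 0.015, -0.043 and 0.074, and their 95% intervals were -0.13 to 0.30, -0.24 to 0.27, -0.33 to 0.25 and -0.096 to 0.24. Over the 26 genes of sirtuins, PGC-1 and mitochondrial biogenesis, 13 were higher and 13 lower. Those that differed most were both of NAD synthesis and of opposite sign, Nampt, given above, and Nmrk2, the muscle nicotinamide riboside kinase. Nmrk2 was at 17.9, 68.1 and 36.3 in DMSO+AB and 16.6, 13.5 and 22.5 in hispidulin+AB, and differed by -1.01 (SE 0.43), with overlap through the first DMSO+AB mouse, and by -1.48 without it (leave-one-out range -1.48 to -0.55). Nnt (18115), which regenerates mitochondrial NADPH, was at 164, 124 and 131 against 169.6, 164 and 171, without overlap (difference 0.28, SE 0.11).

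Of 20 circadian clock genes, 3 (15%, against 7.88% of all genes) did not overlap, all higher with hispidulin. Nr1d2, the repressor REV-ERBbeta, was at 25.9, 24.4 and 15.5 in DMSO+AB and 30.5, 31.6 and 26.9 in hispidulin+AB, and differed by 0.45 (SE 0.21, leave-one-out range 0.23 to 0.58). Cry1 and Per3 differed by 0.23 and 0.27. The output gene Dbp, which peaks at one time of day, differed by -0.14 (leave-one-out range -0.43 to 0.15), and neither the labels nor the study's methods give the hour of tissue collection. Of 16 cell cycle genes 9 were lower, among them the replication helicase subunit Mcm2 at 2.20, 2.83 and 2.53 against 1.52, 1.59 and 2.01 (difference -0.38). Ribosomal protein genes had medians of 0.0053 over 78 cytosolic and -0.042 over 78 mitochondrial genes, and both changed sign between mice left out.

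Of the inflammatory genes, those of neutrophils and the acute phase were higher in 10 of 11, with a median of 0.64, and in 2 (18.2%, against 7.88% of all genes) the groups did not overlap. S100a8 (20201), a calcium-binding protein abundant in neutrophils, was at 9.23, 2.92 and 2.13 in DMSO+AB and 15.2, 12.4 and 9.33 in hispidulin+AB. The lowest hispidulin mouse was just above the highest DMSO mouse, and the difference was 1.39 (SE 0.68, 95% interval -0.10 to 2.88). Its partner S100a9 was at 11.2, 3.57 and 1.94 against 15.7, 15.7 and 8.69, with overlap, and Lcn2, a neutrophil and acute-phase protein, differed by 0.68 (leave-one-out range 0.37 to 0.84). In the sham mice the same list had a median of -0.77, that is, lower with hispidulin, where the third DMSO+Sham mouse was the highest of all for S100a8 at 21.7. Macrophage markers differed little, with 5 of 10 higher and a summed FPKM of 342 to 535 in DMSO+AB and 359.9 to 449 in hispidulin+AB. Lyve1 (114332), carried by lymphatic endothelium and resident macrophages, was at 15.1, 7.87 and 9.22 and 24.3, 15.7 and 14.9, with a slight overlap, and differed by 0.73 (SE 0.22).

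Antigen presentation genes were higher in 12 of 16 (median 0.24), and in 5 (31.3%, against 7.88% of all genes) the groups did not overlap. All 5 belong to the class II pathway, by which macrophages and dendritic cells present peptides. H2-DMb1, which loads the peptide, was at 2.31, 3.47 and 2.10 in DMSO+AB and 3.52, 4.05 and 4.45 in hispidulin+AB, a difference of 0.48 (SE 0.19). H2-Ab1, H2-Eb1, H2-Aa and the invariant chain Cd74 differed by 0.33, 0.31, 0.27 and 0.23. Reads of H2 genes can be shared within the family, and their levels are uncertain. The median of the list was 0.14 without the third hispidulin+AB mouse and 0.12 without the first DMSO+AB mouse.

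Interferon-stimulated genes, which a type I or III interferon switches on through the factor complex ISGF3, were higher with hispidulin in 27 of 28, with a median of 0.49 (leave-one-out range -0.026 to 0.75), but in 1 gene only, Oas2, did the groups separate (3.57%, against 7.88% of all genes). Promoters are shown because many members carry the kind of element that ISGF3 is known to bind. The letters GAAANNGAAA were searched on both strands of 300 bases around each RefSeq start site (build GRCm38.p6). They were found in 14 of the 21 listed genes that had a promoter in the table (66.7%), against 3.99% of 27025 genes. The stretches from 160 to 51 bases upstream of the start site of 3 genes follow, on the strand of the gene, with matches in capitals. Ifit1 lies at chr19:34640729-34640838 on the plus strand, Ifit3 at chr19:34583369-34583478 on the plus strand and Isg15 at chr4:156200869-156200978 on the minus strand. Ifit3 and Isg15 were chosen after their values were seen.
Ifit1: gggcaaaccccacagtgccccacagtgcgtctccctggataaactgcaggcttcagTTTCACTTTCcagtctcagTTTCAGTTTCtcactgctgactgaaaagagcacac
Ifit3: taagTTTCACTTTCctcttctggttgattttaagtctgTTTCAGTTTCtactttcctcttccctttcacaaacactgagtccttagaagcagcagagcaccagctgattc
Isg15: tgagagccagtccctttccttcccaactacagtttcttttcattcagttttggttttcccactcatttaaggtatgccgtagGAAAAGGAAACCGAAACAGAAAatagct
Ifit1 and Ifit3 each hold 2 separate matches in this stretch, read on the opposite strand, and Isg15 holds 3 that overlap one another in a single run. A match is a description of letters and no evidence of binding in these hearts.

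For most of these genes the higher mean of the hispidulin+AB mice rested on a single mouse. Ifit1, which binds viral RNA, was at 1.04, 3.18 and 1.68 in DMSO+AB and 1.59, 2.03 and 11.4 in hispidulin+AB. Isg15, a ubiquitin-like modifier, was at 2.76, 8.23 and 6.99 against 3.45, 6.08 and 25.5, and Irf7, the factor that amplifies interferon production, at 5.39, 8.93 and 9.73 against 8.23, 8.64 and 40.3. The third hispidulin+AB mouse was far above the other 5 in all of them. Among the sham mice the third DMSO mouse was higher still, with Irf7 at 130.6, while the hispidulin+Sham mice were between 6.56 and 8.20. Without the third hispidulin+AB mouse, 9 of the 28 genes, Oas2 among them, were higher with hispidulin and the median was -0.026. The difference of Ifit1 went from 0.70 to -0.019, and that of Isg15 from 0.53 to -0.22. After the sham operation the list had a median of -0.97, of the opposite sign.

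Heat shock and immediate early genes, which rise within minutes of stress to a tissue, divided the mice across the treatment. Hspa1a, an inducible chaperone, was at 321, 47.9 and 38.0 in DMSO+AB and 194, 43.5 and 337 in hispidulin+AB. Atf3, an immediate early transcription factor, was at 116, 14.6 and 17.1 against 67.9, 20.6 and 104, Fos at 11.0, 1.72 and 0.770 against 7.67, 1.30 and 11.8, and the chemokine Ccl2 at 17.5, 2.21 and 0.810 against 11.3, 0.680 and 21.0. In all 4 the first DMSO+AB mouse and, in hispidulin+AB, the first and the third were high and the other 3 low. Differences were 0.75, 0.75, 0.72 and 0.69 with standard errors between 0.70 and 1.22, and their leave-one-out ranges were 0.13 to 1.71, 0.23 to 1.68, 0.15 to 1.53 and -0.063 to 1.79. Hspa1a and its copy Hspa1b are nearly identical, and the division of reads between them is uncertain. Over the 25 immediate early genes the median was -0.052, with 11 higher and 14 lower. It changed sign without the first DMSO+AB mouse (0.15, 19 higher) and without the second hispidulin+AB mouse (0.18, 18 higher). Some members went another way. Gadd45b, a stress-induced regulator of MAP kinases, was at 13.8, 10.5 and 10.1 in DMSO+AB and 17.0, 18.5 and 17.5 in hispidulin+AB, without overlap (difference 0.59, SE 0.27). Jund, an AP-1 subunit, was at 71.8, 75.7 and 89.8 against 66.4, 63.5 and 54.1, also without overlap (difference -0.36, SE 0.14).

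**Figure D4:**
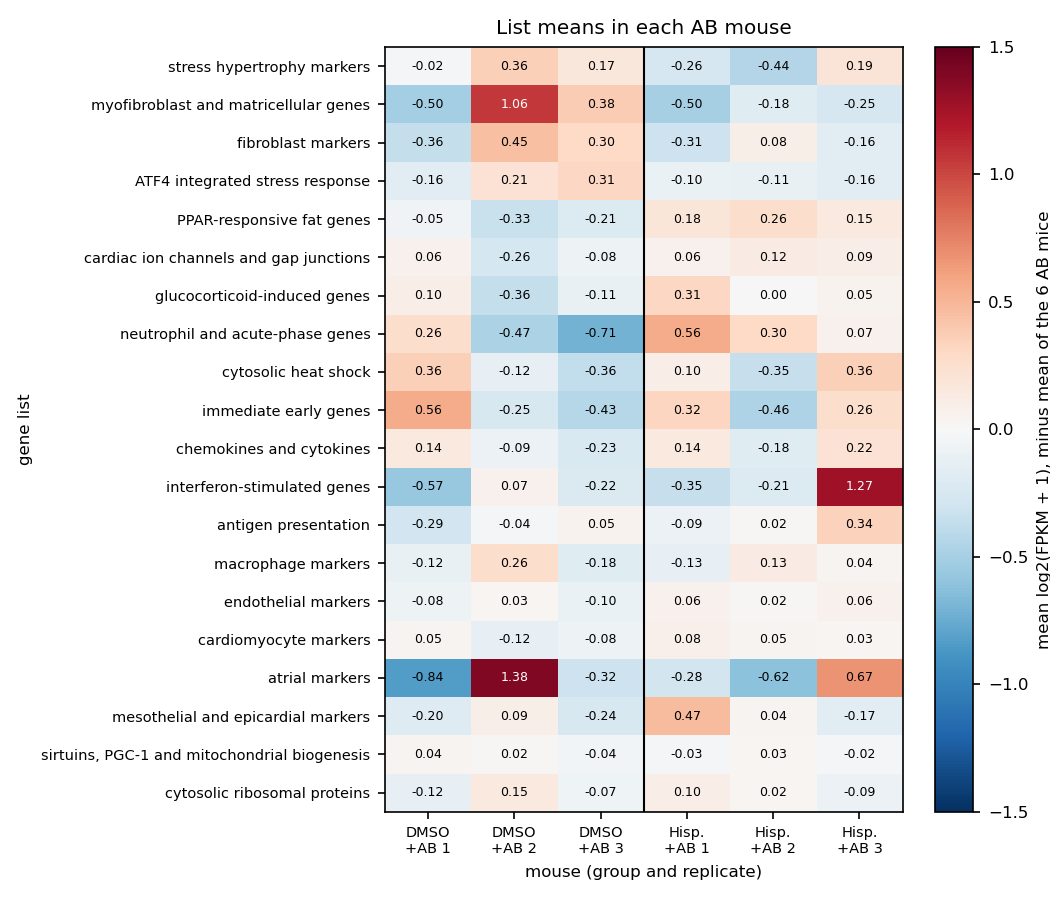
Mean log2(FPKM + 1) of each gene list (rows) in each AB mouse (columns), minus the mean of the 6 mice, with red above and blue below that mean. Interferon-stimulated genes stand out in the third hispidulin+AB mouse (1.27) and atrial markers in the second DMSO+AB mouse (1.38), while PPAR-responsive fat genes are above the mean in all 3 hispidulin+AB mice.

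Markers of tissue that a piece of ventricle can carry along also differed between mice. Myl7, the atrial myosin light chain, was at 0.560, 67.5 and 0.240 in DMSO+AB and 5.76, 1.20 and 42.3 in hispidulin+AB, and Sln, which regulates the calcium pump in atria, at 0.160, 28.6 and 0 against 1.23, 0.150 and 9.73. Both were high in the second DMSO+AB and the third hispidulin+AB mouse. Their differences of 0.76 and -0.11 changed sign with the mouse left out (leave-one-out range -0.40 to 2.63 and -1.02 to 1.49). Nppa is also made in atria. It was nearly as high in the third DMSO+AB mouse, at 5738, where Myl7 was 0.24, as in the second, at 6043, where Myl7 was 67.5. Over the 9 tested atrial markers, Nppa included, the summed FPKM was 722, 6256 and 5785 in DMSO+AB and 722, 1088 and 982 in hispidulin+AB. Msln and Upk3b, of the mesothelium that covers the heart, were at most 0.15 in DMSO+AB, whereas Msln was 2.90, 1.14 and 0.0700 and Upk3b 2.47, 1.05 and 0 in hispidulin+AB. No DMSO mouse reached an FPKM of 1 for either gene. Both passed the filter only through hispidulin mice, so the direction of their difference was largely set by the filter. Over all 6 tested mesothelial and epicardial markers the summed FPKM was 7.72 to 12.4 and 9.13 to 14.6.

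Among the other cell types, smooth muscle and pericyte markers were higher with hispidulin in 8 of 10 (median 0.17), and 0 of them separated the groups (0%, against 7.88% of all genes). Before adjustment 2 of the 10 passed a p of 0.05 in limma, higher with hispidulin, against 3.1% of all genes. The median ranged from 0.10 to 0.28 with one AB mouse left out, the lowest without the second DMSO+AB and the highest without the third hispidulin+AB mouse. Their summed FPKM was 297, 226 and 232 in DMSO+AB and 329, 319 and 277 in hispidulin+AB. Endothelial markers were higher in 7 of 10 (median 0.068), Vwf and Pecam1 without overlap (20%, against 7.88% of all genes), and their sums of 1450.0 to 2347 and 1773 to 1905 overlapped. All 5 tested Schwann and nerve markers were higher (median 0.25, leave-one-out range 0.17 to 0.38), with sums of 4.55, 2.47 and 1.75 against 4.77, 4.65 and 3.79 FPKM, at a level near the limit for testing. Blood cell markers were lower in 7 of 8 (median -0.25, leave-one-out range -0.51 to 0.045), the median being positive without the third hispidulin+AB mouse, and 3 adipocyte markers had a median of 0.021 (leave-one-out range -0.11 to 0.27). The part that the mix of cells had in the gene differences above was not tested.

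Whether the difference made by hispidulin after AB resembled that after sham surgery could be examined without shared mice. In hispidulin+Sham against DMSO+Sham 0 of 11664 genes (0%) passed an adjusted p of 0.05 in limma with Benjamini-Hochberg adjustment, the lowest being 0.337. Before adjustment 287 (2.46%) passed, 135 (1.16%) higher and 152 (1.3%) lower with the drug. With one sham mouse left out that count ran from 153 to 1096, the lowest without the third and the highest without the second DMSO+Sham mouse, and 0 genes passed after adjustment. The interaction of hispidulin and AB gave 0 genes (0%) after adjustment, the lowest value being 0.9995, and 289 (2.48%) before it, 150 (1.29%) positive and 139 (1.19%) negative. The sign of the difference was the same after AB and after sham in 5720 genes (49.0%). Across genes, which are not independent replicates, Pearson's r between the differences was -0.088 and Spearman's coefficient was -0.02. Of the 919 genes that did not overlap after AB, 440 (47.9%) had the same sign after sham, while after sham itself 653 genes (5.6%) did not overlap, 323 (2.77%) higher and 330 (2.83%) lower. In 20 genes, 2.18% of the 919 and 3.06% of the 653, the groups separated in the same direction in both, and in 19 they separated in opposite directions.

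Some of these 20 are regulators of known function. Cry1, the clock repressor, was at 5.14, 5.92 and 4.36 in DMSO+Sham and 6.79, 8.14 and 7.59 in hispidulin+Sham, a difference of 0.48, against 0.23 after AB. Tsku, a secreted inhibitor of several growth factors, was at 2.50, 2.43 and 2.85 in DMSO+AB and 2.09, 1.01 and 1.59 in hispidulin+AB, and differed by -0.51 after AB and -0.25 after sham. Pusl1, a pseudouridine synthase, differed by -0.26 and -0.26, C1qtnf1, a secreted relative of adiponectin, by 0.25 and 0.22, and Rtp3, a receptor transporter, by 0.30 and 0.28. By contrast, Acot1 and Il15 differed by -0.42 and -0.13 after sham, and Nppa by 1.60, where the third hispidulin+Sham mouse, at 966.6, also had high atrial markers.

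**Figure D5:**
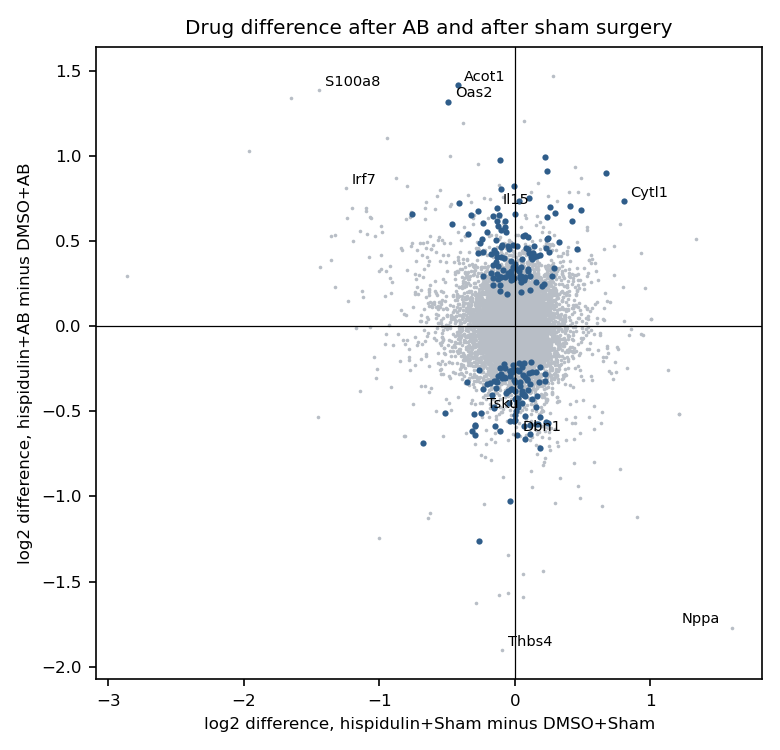
Difference in log2(FPKM + 1) between hispidulin and DMSO after AB (vertical axis) against that after sham surgery (horizontal axis), for the 11664 tested genes, with the 217 genes of unadjusted p under 0.05 and no overlap after AB in blue. The cloud shows no common direction, with 49.0% of genes of the same sign, and the group of points at upper left includes Irf7 and S100a8.

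Over the whole transcriptome the hispidulin+AB mice lay closer to the sham mice than the DMSO+AB mice did. The root mean square distance over the 11664 genes from the mean of the DMSO+Sham mice was 0.367, 0.450 and 0.469 log2 units in the DMSO+AB mice and 0.308, 0.283 and 0.337 in the hispidulin+AB mice. All hispidulin mice were nearer than all DMSO mice (mean 0.309 ± 0.0270 against 0.429 ± 0.0544, SD, n = 3 each, two-sided exact permutation p = 0.1, the smallest that 3 against 3 allows). The first DMSO+AB mouse was again the closest of its group. Measured from the mean of the hispidulin+Sham mice, the distances were 0.350, 0.438 and 0.451 in DMSO+AB and 0.291, 0.253 and 0.345 in hispidulin+AB (exact permutation p = 0.1), likewise without overlap.

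The mice given hispidulin were also more alike. The median over genes of the standard deviation of log2(FPKM + 1) was 0.19 in DMSO+AB and 0.11 in hispidulin+AB, and it was the larger in DMSO+AB for 8789 genes (75.4%). After sham surgery the corresponding values were 0.18 and 0.13, the larger in DMSO+Sham for 67.5% of genes. A larger spread in a group raises its distances as well, and the share of this in the distances was not tested.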

How the data were processed

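Left ventricular RNA of 12 mice was sequenced on a BGISEQ-500, and the labels gave the group of each mouse. The authors deposited 1 table of FPKM, with genes given by NCBI Gene identifier. The submitters' processing notes name HISAT2 2.0.4, Bowtie2 2.2.5, RSEM 1.2.12 and DESeq2 1.4.5, and the genome build and annotation are not given in the sources used here. Symbols from RefSeq were found for 17947 genes (99.3%). Of the tested genes, 12 in 6 sets shared all their values with another gene.

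FPKM were used as deposited. Genes that reached an FPKM of 1 in 3 or more of the 12 mice were analysed as log2(FPKM + 1) in R 4.3.3 with limma 3.58.1. The model held a mean for each of the 4 groups (8 error degrees of freedom, eBayes with a trend), and p-values were two-sided with Benjamini-Hochberg adjustment over all genes tested. The study's methods give thresholds but no model for FPKM. Nothing in the labels says that mice of a group came from separate litters or days, so p-values measure the spread between these mice. Replicate numbers come from the sample titles. Residuals of same-numbered sham mice correlated by 0.13, 0.33 and 0.23, but neither the labels nor the study's methods give a pairing. The values given for the sham mice therefore come from the fit without a block, and the blocked fit made no call there. The procedure was tested on simulated data. Permutation tests and motif searches used Python 3.11.15 and scipy 1.17.1.

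The comparison, the gene lists and the markers were chosen with earlier results of these data known. Genes were named by these rules: the 10 largest positive and 10 largest negative differences among genes with an unadjusted p under 0.05 and no overlap, genes called when 1 mouse was left out, up to 4 members of each list by size of difference with further members that met both conditions, the most abundant genes, genes that separated after AB and sham alike, those the study measured by other methods, and those that set a single mouse apart. Further list members named for their lack of overlap or their role, and the genes used for promoters, were chosen after their values were seen. Some genes that these rules name are not reported here. Alternatives were a value added of 0.1, no filter or one at an FPKM of 5, quantile normalization or median-of-ratios scaling, library weights, no trend, only the AB mice, the animal number series, the replicate number as a block (over all mice or within each operation), and leaving out each mouse in turn. No authors' comparisons were used.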

Additional observations from a re-analysis of the deposited data

How the results depend on the processing

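Of 12 mice, 3 per group set the precision, and with unknown depth low values carry counting error that cannot be given. Between hispidulin+AB and DMSO+AB, 0 genes passed an adjusted p of 0.05 in limma (362 passed unadjusted), and so in every alternative except 2. With no filter on low values 2 genes passed (adjusted p under 0.05), and with each replicate left out in turn the count ran from 0 to 20, the 20 being without the first DMSO+AB mouse. The interaction gave 0 genes throughout except without that mouse (0 to 3), and hispidulin after sham 0 throughout. An absolute difference of at least 1 was found in 28 genes, in 85 with 0.1 added before the logarithm, 18 at an FPKM of 5, 47 with library weights, and 23 to 96 with a replicate left out, the second hispidulin+AB mouse giving 52. The cause of these shifts was not tested. With the replicate number as a block, 0 genes passed in each comparison, 28 differed by at least 1 and 434 had an unadjusted p under 0.05. With no filter the unadjusted count was 681 after AB and 563 after sham, at an FPKM of 5 it was 225 and 173, and with library weights 746 and 899, so that which comparison had more depends on the weights. Residuals of same-numbered AB mice correlated by 0.30, 0.18 and -0.18, so the numbers were not taken to pair the AB mice. With the block set separately for each operation, chosen after seeing the data, 0 genes passed in each comparison, and the unadjusted count was 558 after AB and 421 after sham (287 without a block). Leaving out 1 AB mouse moved the difference by over 1.5 times, or changed its sign, in 61 of the genes named.

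Of 1897 values over the 113 genes named and their 17 alternatives, 29 in 14 genes changed sign. Outside the fits that left out a replicate these were Myl7 at -0.55 and Gja1 at -0.14 with library weights, Sln at 0.71 with 0.1 added, and Ppargc1a at 0.016 with quantile normalization. With a replicate left out, differences ran from -0.40 to 2.63 for Myl7, -1.02 to 1.49 for Sln, -0.14 to 0.24 for Gja1, -0.26 to 0.30 for Ppargc1a, -0.019 to 1.11 for Ifit1, -0.11 to 1.10 for Ifit3, -0.22 to 1.07 for Isg15, -0.011 to 1.71 for Hspa1b, -0.063 to 1.79 for Ccl2, -0.43 to 0.15 for Dbp, -1.08 to 0.16 for Myh7, -0.048 to 0.30 for Sirt1, -0.12 to 0.027 for Cat and -0.039 to 0.062 for Sod2. Of 695 list medians, 13 in 11 lists moved by more than the spread between mice. The mean distance to the sham mice with hispidulin minus that with DMSO was -0.12, without overlap in the 7 alternatives, which were chosen after seeing the data.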
